A study of Mus musculus with 4 samples.

Results

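The glycolytic enzymes and lactate dehydrogenases were followed by 10 genes: the hexokinases Hk1 and Hk2, the phosphofructokinase subunits Pfkl and Pfkp, aldolase A (Aldoa), phosphoglycerate kinase (Pgk1), enolase 1 (Eno1), pyruvate kinase (Pkm) and the lactate dehydrogenase subunits Ldha and Ldhb. They were found by gene symbol among 53465 listed genes. All 10 symbols were present, under 11 entries because the files list Aldoa in a pair of rows. All 11 entries passed the filter on low counts, which left 15766 tested genes.

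RNA-Seq was done on primary (1°) mouse oligodendroglial cells (OGCs) from forebrain of mice aged 2 to 4 days, kept in differentiating conditions for 3 days. All mice were Zfp276 fl/fl, that is homozygous for a Zfp276 allele with loxP sites around several exons. Zfp276cko mice carried a Sox10::Cre transgene in addition, which is active in the oligodendroglial lineage from the precursor stage, and ctrl mice did not carry it. Their descent was mixed (C3H and C57Bl/6J), and a Rosa26 allele with a floxed stop and tdTomato was crossed in to identify Zfp276cko newborns. Each genotype had 2 libraries, made from separate culture preparations that pooled 3 mice. The files hold 21311469 counted reads for ctrl replicate 1, 21068322 for ctrl replicate 2, 25265366 for Zfp276cko replicate 1 and 26599809 for Zfp276cko replicate 2. The 10 symbols took 0.330% and 0.281% of the counts in ctrl cells, and 0.349% and 0.329% in Zfp276cko cells.

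Glycolysis turns glucose into pyruvate in the cytosol. Hexokinase traps glucose as glucose 6-phosphate, phosphofructokinase commits it to the pathway, aldolase splits the sugar, and phosphoglycerate kinase and pyruvate kinase make ATP. Lactate dehydrogenase interconverts pyruvate and lactate. In oligodendrocytes (OLs), glucose also supplies carbon for myelin lipids, and OLs are known to release lactate that axons can use.

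A short element with the core ACGTG or GCGTG is known as a binding site of hypoxia-inducible factor 1 (HIF-1), a classical activator of glycolytic genes, whose subunit gene Hif1a is described with the results. The 250 bases before the annotated starts were therefore searched for these letters on either strand. All 10 members had such windows in RefSeq (GRCm38.p6, the build mm10). A core was held by 14 of their 17 windows (82.4%), 38.6% of all 32851 windows and 53.5% of the windows of tested genes. Some windows of a gene overlap. A pair of Aldoa windows shared the same core and a pair of Eno1 windows the same cores, so these letters were counted repeatedly. Each core contains the letters CG, and the GC content of the member windows ran from 49.6% to 71.2%. The part of GC content in these shares was not tested. Shown are the windows of Hk2, the member with the smallest p between genotypes, of Ldha, the member with the largest spread between ctrl libraries (the upstream of its 2 windows), and of Ldhb, its partner subunit. Each is written 5′ to 3′ on the strand of the gene and ends at the base before the start. Capitals mark the core or its reverse complement, and overlapping matches on both strands (CACGTG) were counted as 2.

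Hk2, chr6:82774455-82774704, minus strand: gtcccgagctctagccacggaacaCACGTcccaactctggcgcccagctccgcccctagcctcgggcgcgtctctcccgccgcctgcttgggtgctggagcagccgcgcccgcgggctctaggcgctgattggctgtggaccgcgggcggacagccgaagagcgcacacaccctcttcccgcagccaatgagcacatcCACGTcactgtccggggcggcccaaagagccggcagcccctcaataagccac

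Ldha, chr7:46845554-46845803, plus strand: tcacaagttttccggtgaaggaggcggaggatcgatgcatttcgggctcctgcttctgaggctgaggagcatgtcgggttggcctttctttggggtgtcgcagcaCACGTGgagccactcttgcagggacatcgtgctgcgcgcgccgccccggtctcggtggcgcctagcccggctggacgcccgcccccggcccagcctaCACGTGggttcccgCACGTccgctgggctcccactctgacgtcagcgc

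Ldhb, chr6:142507958-142508207, minus strand: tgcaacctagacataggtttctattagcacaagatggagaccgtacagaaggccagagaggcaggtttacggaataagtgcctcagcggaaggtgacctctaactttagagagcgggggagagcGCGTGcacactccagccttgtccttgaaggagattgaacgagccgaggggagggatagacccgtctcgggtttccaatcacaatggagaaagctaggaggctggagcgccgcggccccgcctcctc

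The Hk2 window held 2 cores, the printed Ldha window 5 and the Ldhb window 1. The other Ldha window (chr7:46846832-46847081), not printed, held 1 core. A match describes the letters and is no measure of binding, which was not measured in these cells.

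Zfp276 itself had 1648 (replicate 1) and 2230.3 (replicate 2) normalized counts in the ctrl libraries against 489.5 and 502.6 in the Zfp276cko libraries, so that the genotypes were apart in the labelled direction. Here a normalized count is a read count brought to the average effective library size. The log2 fold change was −1.97 (standard error, SE, 0.18 and adjusted p = 0.0962 by edgeR). Sox10, a marker of all OGCs, had 19439 ± 1845 (SD, n = 2) for ctrl against 18208 ± 569.9 (SD, n = 2) for Zfp276cko. Myelin genes were abundant, with 118071 and 177958 normalized counts of Mbp in the ctrl libraries against 87161 and 89976 in the Zfp276cko libraries.

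The ctrl libraries stood apart from each other, and markers of other cell types moved with them. The biological coefficient of variation, the relative spread beyond counting error, was 0.356 between the ctrl libraries and 0.0480 between the Zfp276cko libraries. The 11 fibroblast, mural and endothelial markers summed to 9159 normalized counts in ctrl replicate 1, 604 in ctrl replicate 2, and 568 and 505 in the Zfp276cko libraries, with the collagen gene Col1a2 the most abundant and the endothelial gene Cldn5 at 0 in every library. The 10 neuron markers, led by Map2, summed to 15987 and 25077 in the ctrl libraries against 15624 and 17062 in the Zfp276cko libraries. Map2 made up most of this sum, and none of the 9 tested neuron markers was higher in ctrl replicate 1 than in ctrl replicate 2 (median difference −3.19 on the log2 scale). Gad1, which makes the transmitter GABA, had 78.4 in ctrl replicate 1, 2002 in ctrl replicate 2, and 920.2 and 1003 in the Zfp276cko libraries, so that ctrl replicate 1 was below all other libraries. Microglia and macrophage markers were present although the cultures had been depleted of microglia. Their 14 genes, led by the complement gene C1qb, summed to 62761 in ctrl replicate 1, 34089.8 in ctrl replicate 2, and 50687 and 52295 in the Zfp276cko libraries. The 8 astrocyte markers, led by Gfap, summed to between 35568 and 40582 in all libraries, but their members differed between the ctrl libraries in opposite directions. Gfap had 17641 in ctrl replicate 1 against 8463 in ctrl replicate 2, while Slc1a3, a glutamate carrier, had 2674 and 6747, and only 2 of the 8 were higher in ctrl replicate 1 (median difference −0.99 on the log2 scale). In these bulk samples, fewer cells of a type and less RNA per cell cannot be told apart. Each member is therefore given by library, and with each ctrl library left out.

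**Figure D1:**
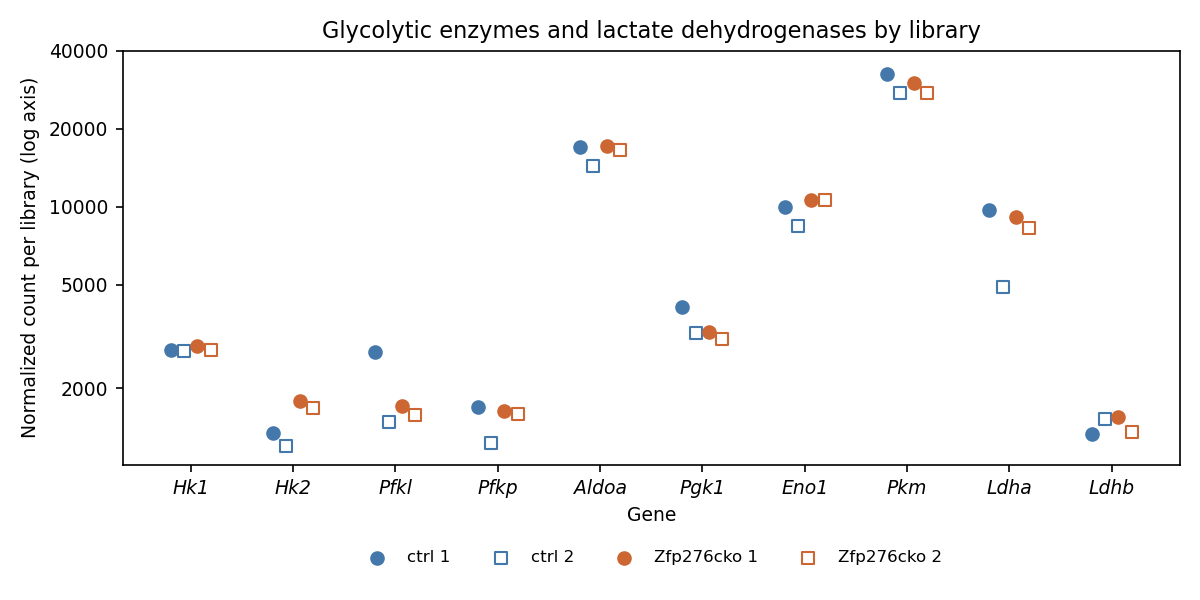
Normalized counts (log axis) of the 10 genes in each library, with ctrl in blue and Zfp276cko in orange, replicate 1 as filled circles and replicate 2 as open squares. Hk2 and Eno1 are the only 2 of the 10 in which each Zfp276cko library lies above either ctrl library.

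The question of the design was which transcripts differ when Zfp276 is deleted in OGCs. None of the 10 genes met the thresholds for a call, set at an adjusted p up to 0.05 over all tested genes, a log2 fold change of 0.6 or more in size, and 20 or more normalized counts on average. The share called among all 15766 tested genes was 0%, so the lack of a call says little about these genes in particular. With an unadjusted p of at most 0.05, Hk2 was higher in Zfp276cko cells and none of the 10 was lower, against 8.33% higher and 7.3% lower among all tested genes. The log2 fold change was above 0 for 7 genes and below 0 for 3, with a median of 0.07 against −0.0013 over all tested genes. It became 0.19 when ctrl replicate 1 was left out and −0.05 when ctrl replicate 2 was, against 0.0095 and 0.0143 over all tested genes. The median size of the log2 fold change, whatever its sign, was 0.17 for the 10 genes and 0.23 for all tested genes. In 2 of the 10 genes the Zfp276cko libraries were both higher than either ctrl library, and in none were both lower, against 26.8% and 23.7% of all tested genes. Neither share was above the background.

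Hexokinases carry out the first step. Hk1 (chromosome 10 of mm10, 62268855 to 62379908, minus strand), the form that most tissues use, had 2814 (replicate 1) and 2783 (replicate 2) normalized counts in the ctrl libraries against 2918 and 2808 in the Zfp276cko libraries. The ranges overlapped and were narrow in either genotype. Its log2 fold change was 0.03 (SE 0.09 and adjusted p = 0.886 by edgeR), and it became 0.04 when ctrl replicate 1 was left out and 0.01 when ctrl replicate 2 was.

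Hk2 (chromosome 6, 82725025 to 82774454, minus strand), an inducible form that binds to mitochondria, had 1338 and 1197 normalized counts in the ctrl libraries against 1779.9 and 1679.6 in the Zfp276cko libraries. Both Zfp276cko libraries were above both ctrl libraries. Averages were 1268 ± 99.5 (SD, n = 2) for ctrl against 1729.7 ± 70.9 (SD, n = 2) for Zfp276cko, a 1.36-fold difference. Its log2 fold change of 0.45 (SE 0.10) had an unadjusted p of 0.0106 and an adjusted p of 0.189 by edgeR, the smallest of the 10 genes, and it became 0.53 when ctrl replicate 1 was left out and 0.36 when ctrl replicate 2 was. DESeq2 gave 0.43 with an adjusted p of 0.159.

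Phosphofructokinase is the main control point of the pathway, and its enzyme is built from liver (Pfkl), platelet (Pfkp) and muscle (Pfkm) type subunits. Pfkl (chromosome 10, 77986947 to 78010083, minus strand) had 2752 and 1475 normalized counts in the ctrl libraries against 1700.2 and 1572 in the Zfp276cko libraries. Ctrl replicate 1 stood alone, and the other 3 libraries were close to each other. A log2 fold change of −0.37 (SE 0.32 and adjusted p = 0.629) became 0.15 when ctrl replicate 1 was left out and −0.76 when ctrl replicate 2 was, so its direction rested on a single library.

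Pfkp (chromosome 13, 6579768 to 6648777, minus strand) had 1686 and 1229.95 normalized counts in the ctrl libraries against 1627 and 1590.3 in the Zfp276cko libraries. Both Zfp276cko libraries lay between the ctrl libraries. Its log2 fold change of 0.14 (SE 0.18 and adjusted p = 0.747) became 0.39 when ctrl replicate 1 was left out and −0.08 when ctrl replicate 2 was.

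Aldolase A splits fructose 1,6-bisphosphate. Aldoa (chromosome 7, 126795234 to 126800751, minus strand) had 17058 and 14361 normalized counts in the ctrl libraries against 17144 and 16644 in the Zfp276cko libraries. The genotypes overlapped, with ctrl replicate 2 the lowest library. Between genotypes the log2 fold change was 0.10 (SE 0.14 and adjusted p = 0.760 by edgeR). It became 0.23 when ctrl replicate 1 was left out and −0.03 when ctrl replicate 2 was. The second entry under this symbol had 8 and 13 counts in the ctrl libraries against 27 and 28 in the Zfp276cko libraries (log2 fold change 1.00, SE 0.38 and adjusted p = 0.336). A second GENCODE gene with the symbol Aldoa lies just upstream of the first. The files pair no identifier with either row, and the coordinates and the length given here were assigned to the row that holds nearly all counts.

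Phosphoglycerate kinase makes the first ATP of the pathway. Pgk1 (chromosome X, 106187100 to 106203699, plus strand) had 4114 and 3262 normalized counts in the ctrl libraries against 3305 and 3083 in the Zfp276cko libraries. Again ctrl replicate 1 was the highest library and the other 3 were close. Its log2 fold change of −0.21 (SE 0.15 and adjusted p = 0.556) became −0.03 when ctrl replicate 1 was left out and −0.38 when ctrl replicate 2 was.

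Enolase makes phosphoenolpyruvate. Eno1 (chromosome 4, 150236721 to 150248879, plus strand) had 9952 and 8429.6 normalized counts in the ctrl libraries against 10589.5 and 10632 in the Zfp276cko libraries. Both Zfp276cko libraries were above both ctrl libraries, but ctrl replicate 1 was closer to them than to ctrl replicate 2. This gave a log2 fold change of 0.21 (SE 0.13 and adjusted p = 0.504), with 0.08 without ctrl replicate 2 and 0.33 without ctrl replicate 1.

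Pyruvate kinase makes the second ATP and pyruvate. Pkm (chromosome 9, 59656368 to 59679375, plus strand) had 32669 and 27518 normalized counts in the ctrl libraries against 30071 and 27403 in the Zfp276cko libraries, the highest counts of the 10 genes. The ranges overlapped, with ctrl replicate 1 the highest library. Pkm had a log2 fold change of −0.07 (SE 0.15 and adjusted p = 0.868). It became 0.06 when ctrl replicate 1 was left out and −0.20 when ctrl replicate 2 was, both under the fold change threshold. Pkm gives rise to the M1 and M2 splice forms, which a count per gene does not separate.

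Lactate dehydrogenase is assembled from the M subunit, encoded by Ldha, and the H subunit, encoded by Ldhb. Ldha (chromosome 7, 46841475 to 46855627, plus strand) had 9769 and 4913 normalized counts in the ctrl libraries against 9132 and 8317 in the Zfp276cko libraries. Here ctrl replicate 2 stood alone at the low end, and ctrl replicate 1 was above both Zfp276cko libraries. The log2 fold change of 0.25 (SE 0.35 and adjusted p = 0.779 by edgeR) became 0.83 when ctrl replicate 1 was left out and −0.17 when ctrl replicate 2 was.

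Ldhb (chromosome 6, 142490249 to 142507957, minus strand) had 1329.8 and 1517 normalized counts in the ctrl libraries against 1555 and 1351 in the Zfp276cko libraries. It was the only member with ctrl replicate 2 above ctrl replicate 1. Ldhb had a log2 fold change of 0.03 (SE 0.13 and adjusted p = 0.936), which became −0.06 when ctrl replicate 1 was left out and 0.12 when ctrl replicate 2 was.

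**Figure D2:**
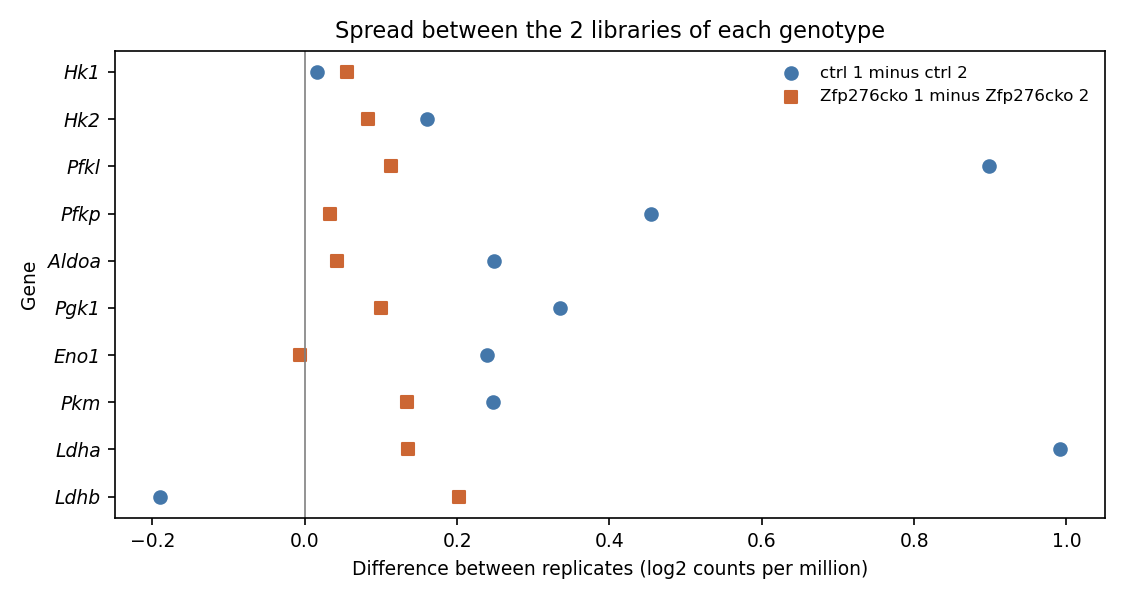
Difference between the libraries of a genotype for each of the 10 genes, in log2 CPM, with ctrl replicate 1 minus 2 as blue circles and Zfp276cko replicate 1 minus 2 as orange squares. Ldha (0.99) and Pfkl (0.90) lie far to the right for ctrl, while the squares lie between −0.01 and 0.20, with Ldhb the farthest from 0.

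The difference between the ctrl libraries was larger than the log2 fold change between genotypes in 8 of the 10 genes, the exceptions being Hk1 and Hk2. Ctrl replicate 1 was above ctrl replicate 2 in 9 of the 10 genes, by 0.99 on the log2 scale for Ldha, 0.90 for Pfkl and 0.45 for Pfkp, and by 0.02 for Hk1. Over all tested genes ctrl replicate 1 was the higher in 7811 of 15766. The median size of the difference between the ctrl libraries was 0.25 for the 10 genes and 0.31 for all tested genes. Between the Zfp276cko libraries it was 0.09 in either set. A difference of at least 0.5 between ctrl libraries was seen in 20% of the 10 genes and 33.6% of all tested genes. Among the pathway genes that are not members, triosephosphate isomerase (Tpi1) had 5908 and 2841 normalized counts in the ctrl libraries against 4148 and 4044 in the Zfp276cko libraries, and glucose phosphate isomerase (Gpi1) had 9742 and 6284 in the ctrl libraries against 7234 and 6981 in the Zfp276cko libraries. Ctrl replicate 1 was the higher ctrl library in 8 of the 12 tested genes of that list, and the lower in Gapdh, its most abundant gene, and in Hk3, Bpgm and Eno3. The fibroblast and microglia marker sums were likewise higher in ctrl replicate 1. Neuron markers, most astrocyte markers and all 8 cell cycle genes (sums 13751 and 22409, median difference −0.65) were higher in ctrl replicate 2. Of 18 interferon response genes, 17 were higher in ctrl replicate 1 (median difference 1.72). Myelin and oligodendrocyte markers summed to 311378 in ctrl replicate 1 and 423110 in ctrl replicate 2, with 4 of 12 higher in ctrl replicate 1. Precursor markers summed to 214255 and 149288, with 5 of 7 higher in ctrl replicate 1. The part of any of these in the spread was not tested.

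**Figure D3:**
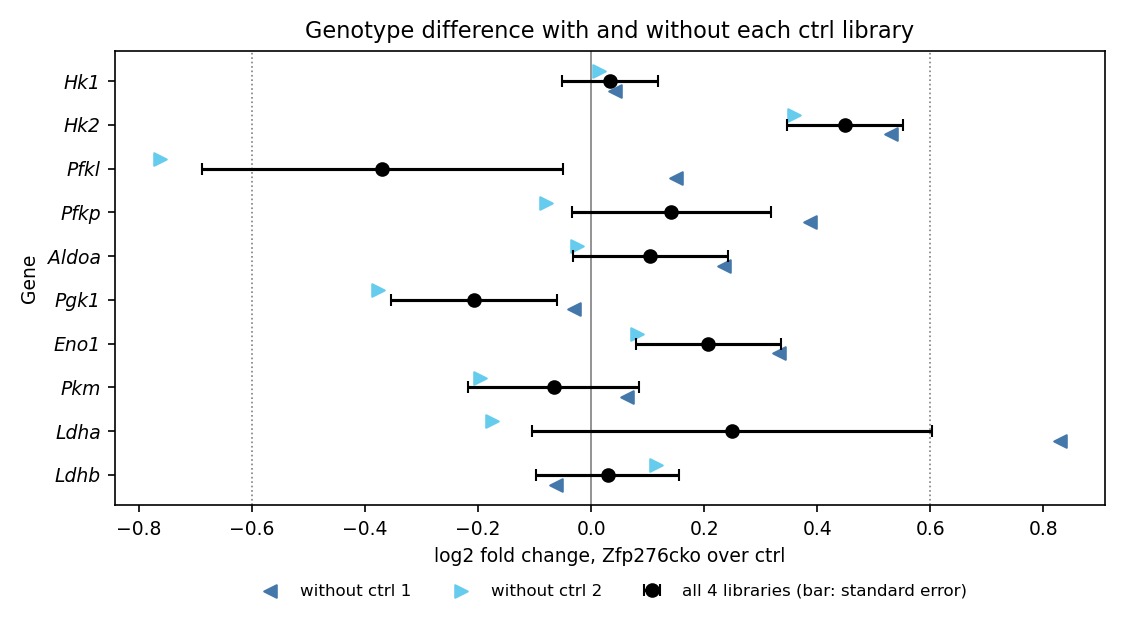
Log2 fold change of Zfp276cko over ctrl for the 10 genes from all 4 libraries (black, bars are standard errors), without ctrl replicate 1 (dark blue triangles) and without ctrl replicate 2 (light blue triangles). Dotted lines mark the fold change threshold of 0.6 in either direction. The values of Ldha and Pfkl lie on either side of 0 depending on the ctrl library, and those of Hk2 stay between 0.36 and 0.53.

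Other tools made no call among the 10 genes either. DESeq2 called 5.13% of the genes with an adjusted p, and limma voom with quality weights per genotype called 1.3% of the tested genes, with 0 of the 10 in both. With a single ctrl library the fit takes that library to vary like the Zfp276cko libraries, which were close to each other, and calls become frequent. Without ctrl replicate 1 such a fit called 16.8% of all tested genes and 1 member, Ldha, as higher. Without ctrl replicate 2 it called 19.4% of all tested genes, among them Pfkl as lower and the second Aldoa entry as higher.

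Levels of different genes were compared per kilobase of exon, as the mean over the 4 libraries. Pkm (5882 normalized counts per kb) and Aldoa (5600.1) were the highest of the members, followed by Ldha (2427), Eno1 (1841), Pgk1 (1533), Ldhb (916), Hk1 (332), Pfkl (281), Hk2 (251) and Pfkp (114). Pkm exceeded 99.4% of the 15502 tested genes that have an exon length, and Pfkp exceeded 47.4%. Neighbours in this order were not all separated. Pkm ranged from 5480 to 6533 over the libraries and Aldoa from 4933 to 5889, the ranges of Ldha, Eno1 and Pgk1 overlapped, and the range of Pfkl overlapped those of Hk1 and Hk2. Per kilobase of the longest coding transcript, Eno1 (4884) was above Ldha (4426), and Pfkp (369.9) was above Hk2 (272), so these orders depend on the length used.

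**Figure D4:**
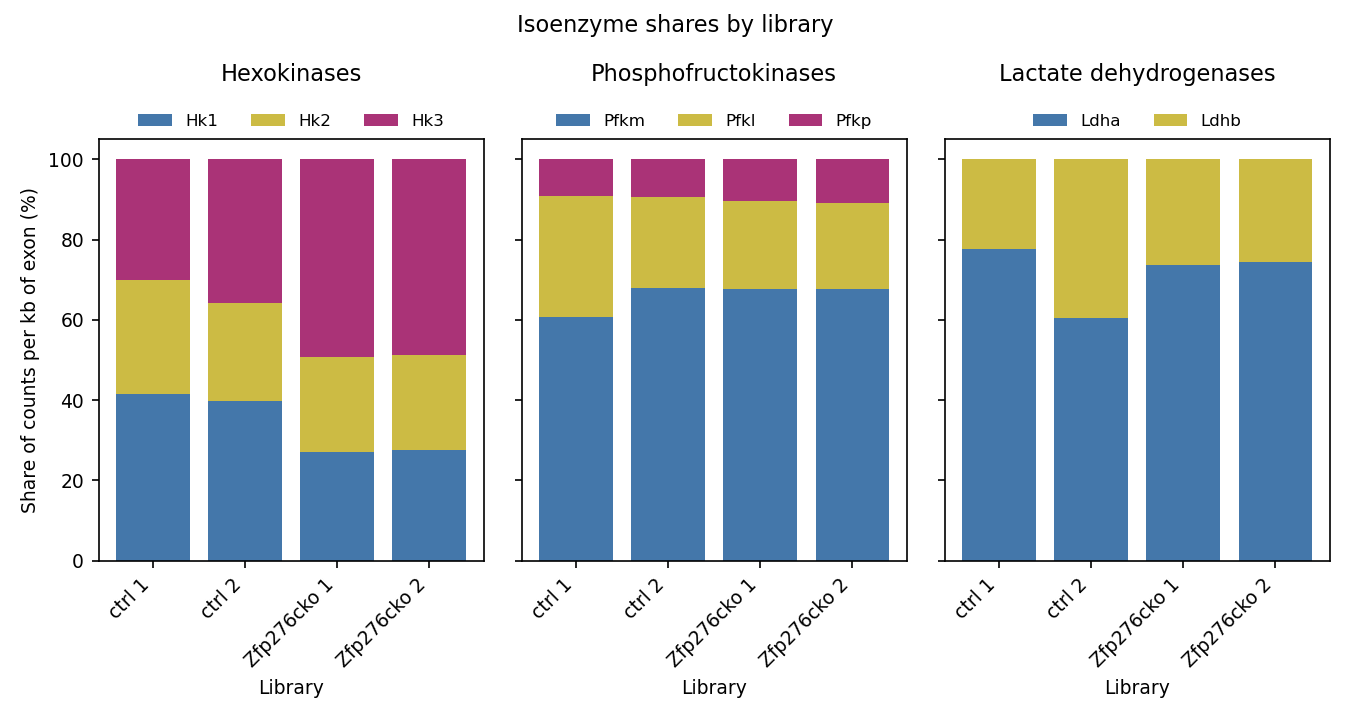
Share of each named gene in the sum of its panel, in percent of counts per kb of exon, as stacked bars for each library. The Hk3 share is larger and the Hk1 share smaller in both Zfp276cko libraries, the Hk2 share lies between 23.6% and 28.3%, and the Ldha share is lowest in ctrl replicate 2.

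Within a family the balance of isoenzyme transcripts can be read in each library without scaling between libraries. Hk2 made up 40.5% and 38.1% of Hk1 and Hk2 together in ctrl, and 46.6% and 46.1% in Zfp276cko cells. All values of one genotype were above those of the other, with a difference of 7.06 percentage points and a two-sided exact permutation p of 0.33, the smallest that 2 libraries against 2 allow. This difference did not hold with the non-member Hk3 in the sum. Per kilobase of exon, the Hk2 share of the 3 genes was 28.3% in ctrl replicate 1, 24.4% in ctrl replicate 2 and 23.6% in both Zfp276cko libraries, a difference of −2.73 percentage points (exact permutation p = 0.33). The difference was −0.58 percentage points per kilobase of the longest coding transcript and 0.291 on counts not divided by length, and the genotypes overlapped on both scales, so that no direction of the Hk2 share among the 3 genes can be given. Per kilobase of exon the Hk1 share was then 41.6% and 39.8% for ctrl against 27.1% and 27.6% for Zfp276cko, and the Hk3 share 30.1% and 35.8% for ctrl against 49.2% and 48.7% for Zfp276cko. Of Hk1 and Hk2 alone, per kilobase of the longest coding transcript, the Hk2 share was 26.0% ± 1.36 (SD, n = 2) for ctrl against 31.9% ± 0.297 (SD, n = 2) for Zfp276cko.

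Among the phosphofructokinases, Pfkm was the largest part of the transcripts, with 60.7% and 68.0% in ctrl and 67.7% in both Zfp276cko libraries. Pfkp took 9.19% and 9.39% in the ctrl libraries against 10.4% and 10.8% in the Zfp276cko libraries (difference 1.33 percentage points, exact permutation p = 0.33). Per kilobase of the longest coding transcript, Pfkp took 19.3% and 20.3% in ctrl against 22.2% and 23.0% in Zfp276cko cells. The difference was then 2.86 percentage points. On that scale Pfkm took 45.7% and 52.7% in ctrl against 51.9% and 51.7% in Zfp276cko cells, so the shares depend on the length used. Per kilobase of exon, the Pfkl share was 30.1% in ctrl replicate 1, 22.6% in ctrl replicate 2, and 21.8% and 21.5% in the Zfp276cko libraries.

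Ldha made up 77.7% and 60.6% of Ldha and Ldhb together in ctrl, and 73.6% and 74.5% in Zfp276cko cells. The Zfp276cko libraries lay between the ctrl libraries. The difference of 4.91 percentage points (exact permutation p = 1.0) became −3.66 when ctrl replicate 2 was left out and 13.5 when ctrl replicate 1 was.

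Several members have near-identical copies in the genome, which limits what uniquely mapped reads can count. Of all stretches of 101 bases, the read length, in the longest coding transcript of Pgk1, 67.0% occur letter for letter in annotated transcripts of other genes, most of them in Pgk1-rs7. The share was 58.8% for Eno1, mostly with the retrogene Eno1b, 9.52% for Pkm, 8.47% for Ldhb, 1.17% for Ldha, and 0% for Hk1, Hk2, Pfkl, Pfkp and Aldoa. The levels of Pgk1 and Eno1 therefore rest on a part of their transcripts and are uncertain beside those of the other members. Eno1b, chosen with its values known, had 934 and 210.4 normalized counts in the ctrl libraries against 308 and 304 in the Zfp276cko libraries, so that ctrl replicate 1 stood apart there too. Gapdh, a step of the pathway described with the other genes, shares 78.0% of such stretches with 83 other genes.

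A further 20 genes encode other forms or steps of the pathway. Of these, 12 were tested, Gapdhs, Ldhc and Pgk2 had 0 counts in every library, and Pgam2 and Pklr had at most 1 count in a library. Of the 12, 3 had both Zfp276cko libraries above both ctrl libraries and 2 below, against 26.8% and 23.7% of all tested genes. The median log2 fold change of the 12 was −0.13. This median turned with the ctrl library, to 0.24 without ctrl replicate 1 and −0.46 without ctrl replicate 2. Gapdh, the dehydrogenase of the pathway, had 9394 and 9928.5 normalized counts in the ctrl libraries against 12552 and 11295 in the Zfp276cko libraries (log2 fold change 0.30, SE 0.12 and adjusted p = 0.335). Phosphoglycerate mutase Pgam1 had 2233 and 1617 in the ctrl libraries against 1638 and 1671 in the Zfp276cko libraries (log2 fold change −0.22, adjusted p = 0.610), and aldolase C (Aldoc), an astrocyte-enriched form, had 7123 and 4496 in the ctrl libraries against 4388 and 3851 in the Zfp276cko libraries (log2 fold change −0.50, adjusted p = 0.434).

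**Figure D5:**
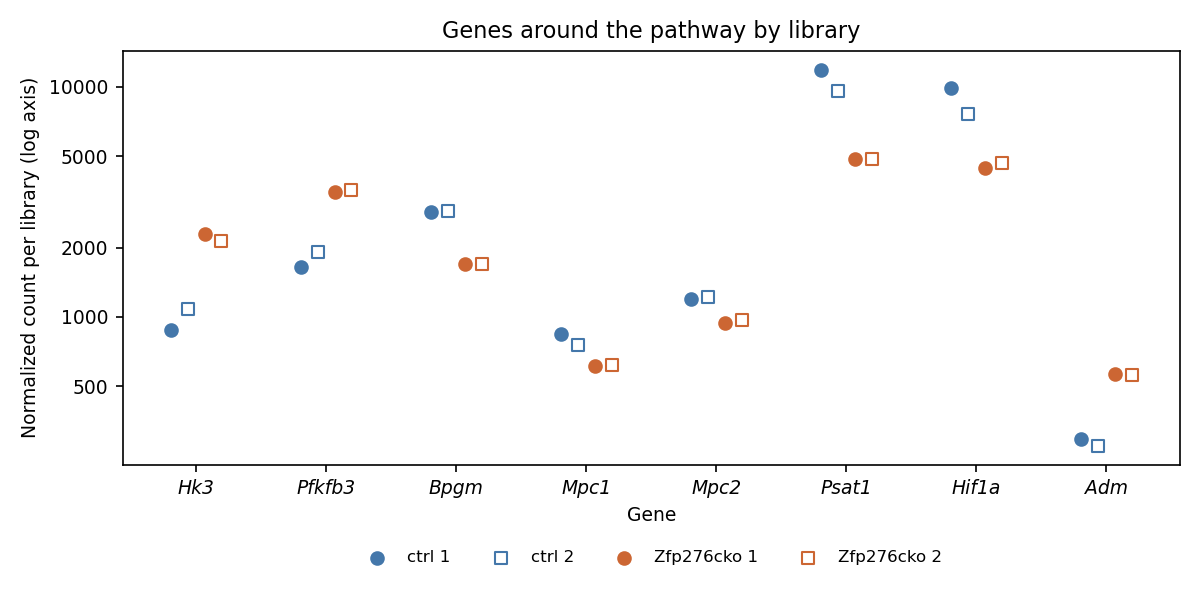
Normalized counts (log axis) by library of 8 genes next to the pathway, with ctrl in blue and Zfp276cko in orange, replicate 1 as filled circles and replicate 2 as open squares. Hk3, Pfkfb3 and Adm are higher and Bpgm, Mpc1, Mpc2, Psat1 and Hif1a lower in each Zfp276cko library than in either ctrl library.

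Several genes next to the members lay further apart between genotypes, although edgeR called none of them. Hk3, Pfkfb3, Bpgm and Psat1 were called by both DESeq2 and limma voom, and Hif1a and Adm by DESeq2. Hk3 (chromosome 13, 55005985 to 55021385, minus strand), a hexokinase typical of myeloid cells, had 879 and 1081 normalized counts in the ctrl libraries against 2287 and 2137 in the Zfp276cko libraries. Both Zfp276cko libraries were far above both ctrl libraries, with a log2 fold change of 1.17 (SE 0.14 and adjusted p = 0.114 by edgeR, and 4.52e-07 from DESeq2). Among the 14 tested entries of the microglia and macrophage list, the Zfp276cko libraries were both higher than either ctrl library in 4 and both lower in 0. For all tested genes these shares were 26.8% and 23.7%. The median log2 fold change of the 14 entries, 0.11, became 0.66 without ctrl replicate 1 and −0.23 without ctrl replicate 2. Ptprc, the leukocyte antigen CD45, had 3018 and 3101 in the ctrl libraries against 5092 and 5264 in the Zfp276cko libraries, and Csf1r, a receptor that microglia depend on, had 11409 and 1849.99 in the ctrl libraries against 3085 and 3016 in the Zfp276cko libraries. The part of myeloid cells in the Hk2 and Hk3 values was not tested.

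Pfkfb3 makes fructose 2,6-bisphosphate, the strongest activator of phosphofructokinase. It had 1643 and 1919 normalized counts in the ctrl libraries against 3495 and 3545 in the Zfp276cko libraries, with a log2 fold change of 0.98 (SE 0.11 and adjusted p = 0.113 from edgeR and 1.32e-06 from DESeq2). Bpgm, which draws off 1,3-bisphosphoglycerate to make 2,3-bisphosphoglycerate, had 2847 and 2884 in the ctrl libraries against 1700.2 and 1702 in the Zfp276cko libraries, with a log2 fold change of −0.75 (SE 0.08 and adjusted p = 0.104 from edgeR and 1.15e-05 from DESeq2). For both genes all ctrl values were apart from all Zfp276cko values. Of the 12 tested regulators of glycolytic flux, which include the kinases and phosphatases of pyruvate dehydrogenase, 4 lay above and 5 below both ctrl libraries. Among all tested genes 26.8% lay above and 23.7% below. The median of the 12 regulators, 0.03, became 0.04 without ctrl replicate 1 and −0.03 without ctrl replicate 2.

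Carriers bring glucose in and move lactate and pyruvate. Slc16a1, the lactate carrier MCT1 that OLs use to export lactate, had 1228 and 910.4 normalized counts in the ctrl libraries against 1133 and 1149.5 in the Zfp276cko libraries (log2 fold change 0.09, SE 0.17 and adjusted p = 0.832). Both Zfp276cko libraries lay between the ctrl libraries. Slc2a1, the glucose carrier GLUT1, had 1779.7 and 1413 in the ctrl libraries against 1303 and 1349.7 in the Zfp276cko libraries (log2 fold change −0.27, adjusted p = 0.448). Slc2a3, the carrier GLUT3, had 416 and 466 in the ctrl libraries against 604 and 628 in the Zfp276cko libraries (log2 fold change 0.48, adjusted p = 0.235).

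The mitochondrial pyruvate carrier is made from Mpc1 and Mpc2. Mpc1 had 839 and 757 normalized counts in the ctrl libraries against 613 and 620.3 in the Zfp276cko libraries (log2 fold change −0.37, adjusted p = 0.277), and Mpc2 had 1199 and 1218 in the ctrl libraries against 937 and 966 in the Zfp276cko libraries (log2 fold change −0.35, adjusted p = 0.220). Both were lower in each Zfp276cko library than in either ctrl library. With all libraries, the 6 genes of the pyruvate dehydrogenase complex and pyruvate carboxylase had log2 fold changes between −0.29 and −0.03, all below 0. Not all stayed below 0 with a ctrl library left out. The values then ran from −0.53 to 0.04 without ctrl replicate 1 and from −0.52 to 0.11 without ctrl replicate 2. Of the 6 genes, 1, Pdhb, was apart between genotypes. Of the 8 genes of the pentose phosphate pathway, 3 lay below both ctrl libraries and 0 above. The shares over all tested genes were 23.7% below and 26.8% above. The median of the 8 genes was −0.07, and it became −0.01 without ctrl replicate 1 and −0.16 without ctrl replicate 2. Transketolase (Tkt) had 7909 and 6640.4 in the ctrl libraries against 5987 and 5583 in the Zfp276cko libraries (log2 fold change −0.33, adjusted p = 0.349).

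Serine synthesis branches off after phosphoglycerate kinase. Psat1, its aminotransferase, had 11874 and 9588 normalized counts in the ctrl libraries against 4874 and 4835 in the Zfp276cko libraries. Its log2 fold change was −1.14 (SE 0.14 and adjusted p = 0.120 by edgeR and 1.43e-07 from DESeq2), and the Zfp276cko libraries were well below both ctrl libraries. Of the 12 genes of the glycerol phosphate, glycogen and serine branches, 4 lay below and 1 above both ctrl libraries. In all tested genes 23.7% lay below and 26.8% above. The median of the 12 branch genes was −0.21. Without ctrl replicate 1 this median was 0.10, and without ctrl replicate 2 it was −0.42.

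Hif1a protein is controlled mainly by oxygen-dependent breakdown through prolyl hydroxylases such as Egln1, so the transcript is only part of its regulation. Hif1a transcripts (chromosome 12) had 9840.2 and 7618 normalized counts in the ctrl libraries against 4428 and 4679.8 in the Zfp276cko libraries, with a log2 difference of −0.94 (SE 0.16 and adjusted p = 0.148 from edgeR and 2.28e-04 from DESeq2). All Zfp276cko values were below all ctrl values, and the log2 fold change was −0.74 without ctrl replicate 1. Egln1 had 2211 and 2173 in the ctrl libraries against 1643 and 1662 in the Zfp276cko libraries (log2 fold change −0.41, adjusted p = 0.171), and Adm, which encodes adrenomedullin, had 294 and 276 in the ctrl libraries against 566 and 559 in the Zfp276cko libraries (log2 fold change 0.98, adjusted p = 0.123). Of the 19 genes of the HIF-1 list outside glycolysis, 6 lay below and 6 above both ctrl libraries, against 23.7% and 26.8% of all tested genes. The median of the 19 genes, −0.03, became 0.23 without ctrl replicate 1 and −0.07 without ctrl replicate 2. Every member had the core in at least 1 window, as did 59.6% of the tested genes that have a window. The log2 fold changes of the members lay on both sides of 0, and the part of Hif1a in them was not tested.

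Over the same libraries, the lists of other programs also depended on the ctrl library. All 18 interferon response genes were higher in each Zfp276cko library than in either ctrl library (median 3.41 on the log2 scale), but they also split the ctrl libraries, with sums of 16168.5 and 6270.2 normalized counts, and 17 of the 18 were higher in ctrl replicate 1. Leaving out ctrl replicate 1 gave them a median of 5.02, and leaving out ctrl replicate 2 gave 2.73. Of the 12 myelin and oligodendrocyte markers 10 lay below both ctrl libraries (median −0.87), with medians of −1.02 and −0.56 when ctrl replicate 1 or 2 was left out. Of the 7 precursor markers 5 lay below (median −0.59), with −0.41 and −0.34. The 8 cell cycle genes had a median of 0.18 with 1 gene above, and −0.13 and 0.51 in those fits. Over all tested genes, 26.8% lay above both ctrl libraries and 23.7% below. The median of the 10 glycolytic members, 0.07, became 0.19 without ctrl replicate 1 and −0.05 without ctrl replicate 2. Its sign thus turned with the ctrl library, as that of the cell cycle genes did. The medians of the interferon, myelin and precursor lists changed in size but kept their sign. Differences between lists were not tested.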

How the data were processed

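The submitters' processing notes name STAR 2.5.4a, featureCounts 1.5.1, DESeq2 and the build mm10 (GRCm38), whereas the paper's methods name HTSeq on Ensembl genes; which counter made the files, and its strand setting, is not given in the sources used here. The authors deposited raw counts per gene symbol from uniquely mapped single-end reads, without normalization. Members, lists and tests were chosen with earlier results of these data known. Genes kept by filterByExpr (99.9% of the counts) were normalized with TMM and compared with edgeR 4.0.16 (quasi-likelihood, Benjamini-Hochberg over all tested genes) in R 4.3.3. Standard errors are the log2 fold change divided by the root of F. Alternatives used DESeq2 1.42.0, limma 3.58.1, DESeq2 size factors, other filters, a replicate block and each library left out. Named were all members, the genes for steps none of them carries, the main glucose and lactate carriers, Hif1a, Zfp276 and Sox10, and at most 5 genes of each list with the smallest p; Eno1b, Eno3, Aldoc, Pfkm, Csf1r, Gfap, Slc1a3, Gad1, Map2 and Mbp were picked with their values known. Gene models and exon lengths are from GENCODE M21 (mm10), promoter windows from RefSeq. Genes most like the members were the 5 tested genes outside the lists with the smallest root mean square distance in centred log2 CPM. The 2 libraries per genotype come from separate preparations and limit the precision of every value.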

Additional observations from a re-analysis of the deposited data

How the results depend on the processing

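Across the fits to all 4 libraries (DESeq2 size factors, no filter, at least 10 counts in every library, replicate block, DESeq2, edgeR with the legacy setting off, limma voom), 0 members were called in either direction, no member's log2 fold change turned its sign, and that of Hk2 stayed between 0.43 and 0.47 with adjusted p-values between 0.159 and 0.347. Without a filter on low counts 8 genes in all were called higher. Adjusted p alone called 0 members, and so did an unadjusted p with the fold and count thresholds kept. With a library left out, between 0 and 1 member was called higher and between 0 and 1 lower (Ldha, Pfkl and the second Aldoa entry). The log2 fold change then ranged from −0.17 to 0.83 for Ldha, −0.76 to 0.15 for Pfkl, −0.079 to 0.388 for Pfkp, −0.0253 to 0.235 for Aldoa, −0.197 to 0.063 for Pkm and −0.0757 to 0.127 for Ldhb, so that these 6 turned their sign, while Hk1, Hk2, Pgk1 and Eno1 did not. The Ldha share ranged from −3.66 to 13.5 percentage points. The cause of these turns was not tested beyond the values of each ctrl library. Zfp276 was past the thresholds with DESeq2 (−1.98, adjusted p = 1.21e-14) and limma voom (−1.95, 0.0148).

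The replicate numbers showed no pairing of the libraries (correlation of deviations between ctrl replicate 1 and Zfp276cko replicate 1, 0.0064). The Zfp276cko libraries differed little from each other (biological coefficient of variation 0.0480), so this correlation cannot exclude a pairing. With the replicate block 0 genes were called and Hk2 had a log2 fold change of 0.45 (adjusted p = 0.347). The length of the longest coding transcript, chosen after seeing the data, kept the direction of the 3 isoenzyme shares. Hk3 in the hexokinase sum, also chosen after seeing the data, turned the difference in the Hk2 share from 7.06 to −2.73 percentage points per kilobase of exon, against −0.58 per kilobase of the longest coding transcript and 0.291 on counts. The cause was not tested.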

Other observations

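By the mean centred profile of the 10 members over the 4 libraries, ctrl replicate 1 was highest at 0.13 and ctrl replicate 2 lowest at −0.21 on the log2 scale, with the Zfp276cko replicates at 0.08 and −0.0066. The tested genes outside the lists with the closest profile were Dmxl2, Tmem14a, Cog7, Adamts1 and Tmbim1, at root mean square distances between 0.0072 and 0.0179 on the log2 scale. Of the members, Aldoa was nearest to the mean profile (0.04) and Pfkl farthest (0.27). With 4 libraries, a close profile carries little information about any gene.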
